A study of Mus musculus with 8 samples.

Results

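B2m and Tfrc were each read by 1 probe printed as 20 spots on every array, which makes them 2 of the 15 probes that carry a RefSeq mRNA among 60915 noncontrol probes. The B2m probe is CUST_13_PI419532418 (NM_009735.3) and the Tfrc probe is CUST_8_PI419532418 (NM_011638.3). Both were chosen by name and accession, without use of their values. The study hybridised RNA from hearts of wild type male C57BL/6J mice, aged 8 to 10 weeks and weighing 24 to 26 g, to 8 one-colour Agilent arrays. In the banded group (n = 4) the descending aorta had been tied against a 26-gauge needle, which narrows the vessel and raises the pressure the heart has to pump against. In the sham group (n = 4) a similar operation was done as a sham, and both groups were sampled 4 weeks after surgery. The labels name the tissue as heart, with no chamber, and give each array its own mouse number. The files used here pair no probe with a marker of a heart cell type, so the tissue label was not checked against markers.

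B2m encodes beta-2 microglobulin, the small invariant light chain that holds MHC class I heavy chains in shape and lets them reach the cell surface with their peptides. Nearly all nucleated cells make it, and interferons raise its transcription. Tfrc encodes transferrin receptor 1, which binds iron-loaded transferrin and carries it into the cell by endocytosis. Iron regulatory proteins bind the Tfrc mRNA and protect it from decay when the cell is short of iron, and heart muscle cells of the mouse need the receptor to fill their demand for iron. Both transcripts are also in common use as reference genes against which other genes are normalised. In whole hearts, fewer cells of a type and less RNA per cell cannot be told apart.

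The 250 bases upstream of the RefSeq start of each gene are shown as background on the 2 genes. Whether these regions bear on the levels measured here was not tested. The sequences are RefSeq's on build GRCm38.p6, plus strand, chr2:122147437-122147686 for B2m and chr16:32608646-32608895 for Tfrc, which has 2 listed starts, of which the first was taken. Capitals mark matches on either strand to 5 motifs: the core of the interferon-stimulated response element (GAAANNGAA), the CCAAT box (CCAAT), the core bound by hypoxia-inducible factors (ACGTG), the first part of the cyclic AMP response element (TGACG) and the GC box (GGGCGG).
B2m: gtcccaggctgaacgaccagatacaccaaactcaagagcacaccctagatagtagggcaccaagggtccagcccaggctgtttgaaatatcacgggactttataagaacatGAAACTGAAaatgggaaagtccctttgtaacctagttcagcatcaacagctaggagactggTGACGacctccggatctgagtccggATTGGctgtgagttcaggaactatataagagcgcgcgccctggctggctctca
Tfrc: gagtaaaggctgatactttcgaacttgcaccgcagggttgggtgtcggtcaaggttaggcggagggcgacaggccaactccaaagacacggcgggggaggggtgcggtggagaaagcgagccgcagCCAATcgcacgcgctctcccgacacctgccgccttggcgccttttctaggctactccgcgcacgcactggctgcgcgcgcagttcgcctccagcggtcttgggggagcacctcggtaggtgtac
The windows differ in base composition, with 50.8% G and C for B2m and 64.8% for Tfrc. B2m held 1 match to the interferon element, from -139 to -131 relative to the start, and such a match lay in 7.13% of 32851 mouse windows of the same length. It also held 1 cyclic AMP element part (17.8% of windows) and 1 CCAAT box on the minus strand (33.8% of windows). Tfrc held 1 CCAAT box, from -124 to -120, and no other match. The hypoxia core lay in 16.6% and the GC box in 32.7% of all windows, and in neither of these 2. None of the matches overlapped, and a match is a description of letters and not a bound site.

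Both transcripts were bright on every array. All 160 B2m spots and all 160 Tfrc spots lay well above background, against a local background of 20 to 23.5 units around the B2m spots. No spot was saturated. The array means over spots not flagged as outliers were 9.19% to 18.4% of the scanner's saturation value for B2m and 1.34% to 2.4% for Tfrc. Single spots ranged more widely. Per the file flags, 8 of the 160 B2m spots and 0 of the Tfrc spots were outliers and were set aside. Their 20 copies agreed closely within an array. The SD over copies ran from 0.0314 to 0.0756 log2 units for B2m and from 0.0416 to 0.0986 for Tfrc. These SDs leave out the outlier spots and follow the scanner software's spatial detrending. Before detrending they ran from 0.0306 to 0.111 for B2m and from 0.0862 to 0.141 for Tfrc. The log2 signal before any scaling had an SD between the 8 arrays of 0.369 for B2m and 0.290 for Tfrc.

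The processed signal is the scanner software's background-subtracted intensity in arbitrary units, with no scaling between arrays. For B2m it was 85180, 143000, 141700 and 119600 units in banded 1 to 4, against 122300, 71560, 90350 and 91590 units in sham 1 to 4. Banded 1 stood with the lower sham arrays and sham 1 with the higher banded arrays, so the groups overlapped. For Tfrc the signal was 13060, 18700, 18290 and 16290 units in banded 1 to 4, against 17140, 10430, 13410 and 13830 units in sham 1 to 4. The same arrays were high and low as for B2m, and the groups again overlapped.

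**Figure D1:**
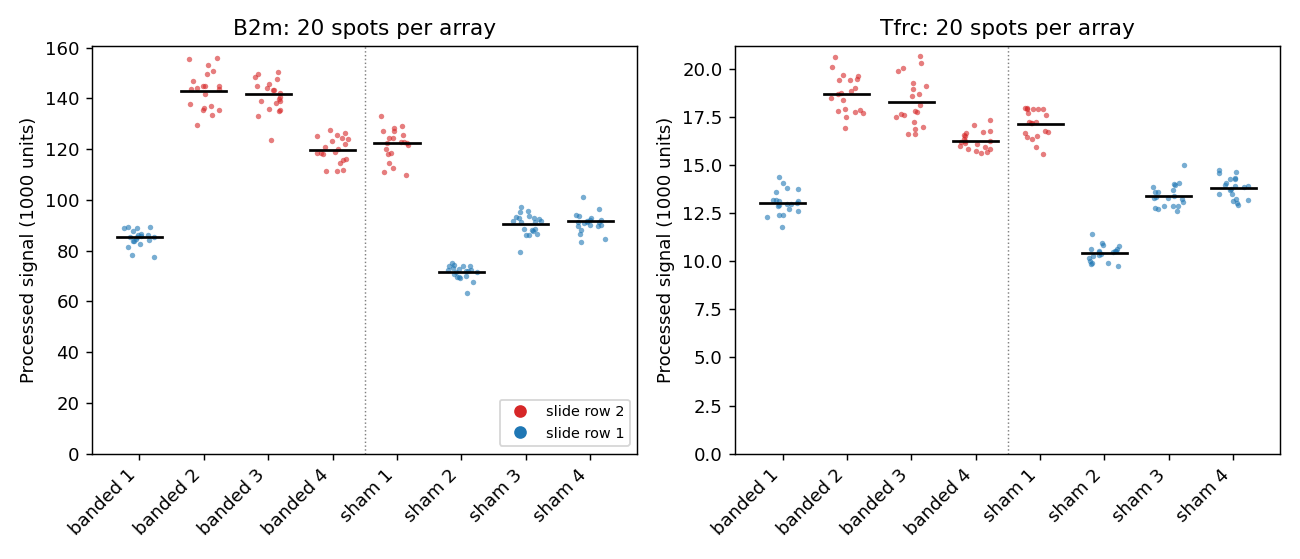
Processed signal in units of 1000 (vertical axes, starting at 0) of the 20 spots of B2m (left) and Tfrc (right) on each of the 8 arrays, banded arrays left of sham arrays. Points are spots, coloured by the row of the array on the slide, and bars are the geometric mean of unflagged spots. All 4 arrays of row 2 lie above all 4 arrays of row 1 for both genes, while banded 1 lies low among the banded arrays and sham 1 high among the sham arrays.

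To compare arrays, the log2 signal was taken relative to the 75th percentile of all noncontrol probes on the same array. That percentile was 142.9 to 254.7 units on banded and 177.6 to 206.1 units on sham arrays. On this scale B2m stood at 8.39, 9.83, 9.95 and 9.42 in banded 1 to 4, against 9.43, 8.44, 8.92 and 8.81 in sham 1 to 4. Tfrc stood at 5.68, 6.89, 7.00 and 6.55 in banded 1 to 4, against 6.59, 5.66, 6.17 and 6.09 in sham 1 to 4. The lowest banded array was banded 1 and the highest sham array was sham 1, for both genes.

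Some arrays resembled each other closely, which bears on how many samples there are. All 8 lay on 1 slide, in 2 rows of 4, with banded 2, 3 and 4 and sham 1 in row 2 and banded 1 and sham 2, 3 and 4 in row 1. Over 15117 bright probes, log2 differences between neighbouring arrays of 4 pairs (banded 2 and banded 3, banded 4 and sham 1, sham 3 and sham 4, banded 1 and sham 2) spread 0.969 to 1.34 times as widely as the noise between copies of a probe. In the other 24 combinations they spread 2.61 to 5.26 times as widely. Sham 3 and sham 4 spread 0.99 times as widely as this noise, and banded 2 and banded 3 1.34 times, so each of these same-surgery pairs was averaged and counted as 1 sample. This left 3 banded and 3 sham samples, although the labels name separate mice. All 4 close pairs were slide neighbours, and whether their likeness came from place on the slide or from shared RNA was not tested. With all 8 arrays counted separately, the surgery difference of B2m was 0.50 log2 units, against 0.32 after averaging. The noise rests on an SD over copies of 0.0848, which the gene Gk raised. That SD was 0.218 for Gk, 0.102 for G6pd2 and 0.0511 to 0.0672 for the other detected genes printed in many copies. Against a noise without Gk all these multiples would be larger, and they were not computed. Banded 1 and sham 2, as well as banded 4 and sham 1, bear different surgery labels and were kept apart, although the first of these pairs spread 0.969 times as widely as the noise and the other 1.17 times. The array labelled banded 1 was thus most like a sham array and the array labelled sham 1 most like a banded array. Likewise, sham 2 was most like banded 1, and banded 4 most like sham 1. Whether names were exchanged, either of banded 1 and sham 1 or of sham 2 and banded 4, cannot be settled with the files used here. The first exchange cannot be told apart from a difference between slide rows, since surgery and row would then be the same split. After the second, they would not be the same split. Every surgery and row value below thus holds for the labels as given.

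The first comparison asks whether banding changed the level of either transcript. Neither B2m nor Tfrc passed the threshold, and the estimates were smaller than the spread between samples. B2m averaged 9.23 ± 0.77 in banded and 8.91 ± 0.50 in sham hearts (SD, n = 3 each, log2 relative to the 75th percentile). The log2 difference was 0.32 with an SE of 0.42 (limma adjusted p = 0.995 over 35786 tested probes), a ratio of 1.25 with a 95% interval of 0.636 to 2.46. Tfrc averaged 6.39 ± 0.65 in banded and 6.13 ± 0.47 in sham hearts (SD, n = 3 each). The log2 difference was 0.26 with an SE of 0.37 (limma adjusted p = 0.995), a ratio of 1.20 with a 95% interval of 0.658 to 2.19. Exact two-sided permutation tests of the group means gave p = 0.8 for B2m and p = 0.7 for Tfrc, where 3 against 3 cannot go below 0.1. The intervals take in ratios well below 1 as well as ratios above 2, so the data do not show that the levels were alike.

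Over all tested probes, 0 passed the adjusted threshold between banded and sham hearts, which is 0% (limma with Benjamini-Hochberg adjustment). At an unadjusted p under 0.05 there were 726, or 2.03%, of which 200 were higher and 526 lower. The count for the members was likewise 0 of 2.

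The surgery difference of both genes depended on which arrays were set against each other. Within slide row 2, B2m averaged 9.73 over 3 banded arrays and 9.43 on the 1 sham array, a difference of 0.31, and Tfrc 6.81 and 6.59, a difference of 0.22. Within slide row 1, B2m stood at 8.39 on the 1 banded array and averaged 8.72 over 3 sham arrays, a difference of -0.34, and Tfrc stood at 5.68 and 5.97, a difference of -0.29. On this scale the estimates were above 0 in row 2 and below 0 in row 1 for both genes, with a single array on one side each time and no test of the difference between rows. Without centring they were above 0 in both rows, at 0.14 in row 2 and 0.02 in row 1 for B2m and at 0.05 and 0.07 for Tfrc. Where a banded and a sham array formed a close pair, B2m differed by -0.05 between banded 1 and sham 2 and by -0.00329 between banded 4 and sham 1, and Tfrc by 0.02 and -0.04, given as banded minus sham. Each of these differences is smaller than the SD over copies pooled over the 2 arrays, which is the spread of single spots. The differences are between means over many spots, whose error is smaller than that SD. The comparison thus does not show that the arrays were alike within spot noise. The scaling matters here too: without centring, banded 1 was above sham 2 by 0.25 for B2m and 0.32 for Tfrc, and banded 4 minus sham 1 was -0.03 and -0.07. Fitted together with slide row, the surgery difference was -0.02 for B2m (SE 0.23, limma adjusted p = 0.996) and -0.03 for Tfrc (SE 0.22, limma adjusted p = 0.996). When all 8 arrays were counted separately and weighted by quality, so that an array far from its group counts less, the surgery difference was 0.78 for B2m (95% interval 0.25 to 1.32, limma adjusted p = 0.064) and 0.63 for Tfrc (95% interval 0.14 to 1.11, limma adjusted p = 0.0811), so these intervals lie above 0 while the adjusted p missed the threshold. The same holds with banded 1 and sham 1 left out, at 1.00 for B2m (95% interval 0.36 to 1.65, limma adjusted p = 0.118) and 0.85 for Tfrc (95% interval 0.22 to 1.49, limma adjusted p = 0.165). These 2 arrays were left out after the values had been seen. What remains sets banded arrays of row 2 against sham arrays of row 1. The exact two-sided permutation p was 0.333 for each gene, the smallest that 2 against 2 can give. With weights, too, arrays far from their surgery group count less, so neither interval shows surgery apart from row.

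The second comparison asks how the genes ran with the place of the array on the slide, since each row held banded and sham arrays. Both genes were higher in row 2. B2m gave 119600 to 143000 units on the 4 arrays of row 2 and 71560 to 91590 units on the 4 arrays of row 1. Tfrc gave 16290 to 18700 units in row 2 and 10430 to 13830 units in row 1. The rows did not overlap for either gene, on the signal scale or on the log2 scale, where the gap between them was 0.51 for B2m and 0.38 for Tfrc. Higher values in row 2 with no overlap were seen for 16.3% of 35684 tested probes measured on all 8 arrays.

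B2m averaged 9.58 ± 0.27 in row 2 and 8.56 ± 0.26 in row 1 (SD, n = 3 each), a log2 difference of 1.02 with an SE of 0.20 and a ratio of 2.02 (95% interval 1.46 to 2.79, limma adjusted p = 0.0166). Tfrc averaged 6.70 ± 0.22 in row 2 and 5.82 ± 0.26 in row 1 (SD, n = 3 each), a log2 difference of 0.87 with an SE of 0.19 and a ratio of 1.83 (95% interval 1.35 to 2.48, limma adjusted p = 0.0234). Both members thus passed the threshold, against 13.4% of all tested probes in either direction and 8.56% in the higher direction. A row difference at least as large as that of B2m was found for 3.84% of tested probes, and one at least as large as that of Tfrc for 5.31%. The exact two-sided permutation p was 0.1 for each gene, the smallest that 3 against 3 can give. With each of the 4 close pairs counted as 1 sample, 2 per row, neither gene passed (B2m adjusted p = 0.0898, Tfrc adjusted p = 0.13, limma), against 3.99% of all probes.

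The row difference had the same direction among banded and among sham arrays. Over banded arrays B2m was 1.35 log2 units higher in row 2 (3 arrays) than in row 1 (1 array), and over sham arrays 0.70 higher (1 array against 3). Tfrc was 1.13 higher over banded and 0.62 higher over sham arrays. Without centring these differences were 0.66 over banded and 0.54 over sham arrays for B2m, and 0.44 and 0.46 for Tfrc. With surgery in the model the row difference was 1.02 for B2m and 0.88 for Tfrc (limma adjusted p = 0.0364 and 0.0481).

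**Figure D2:**
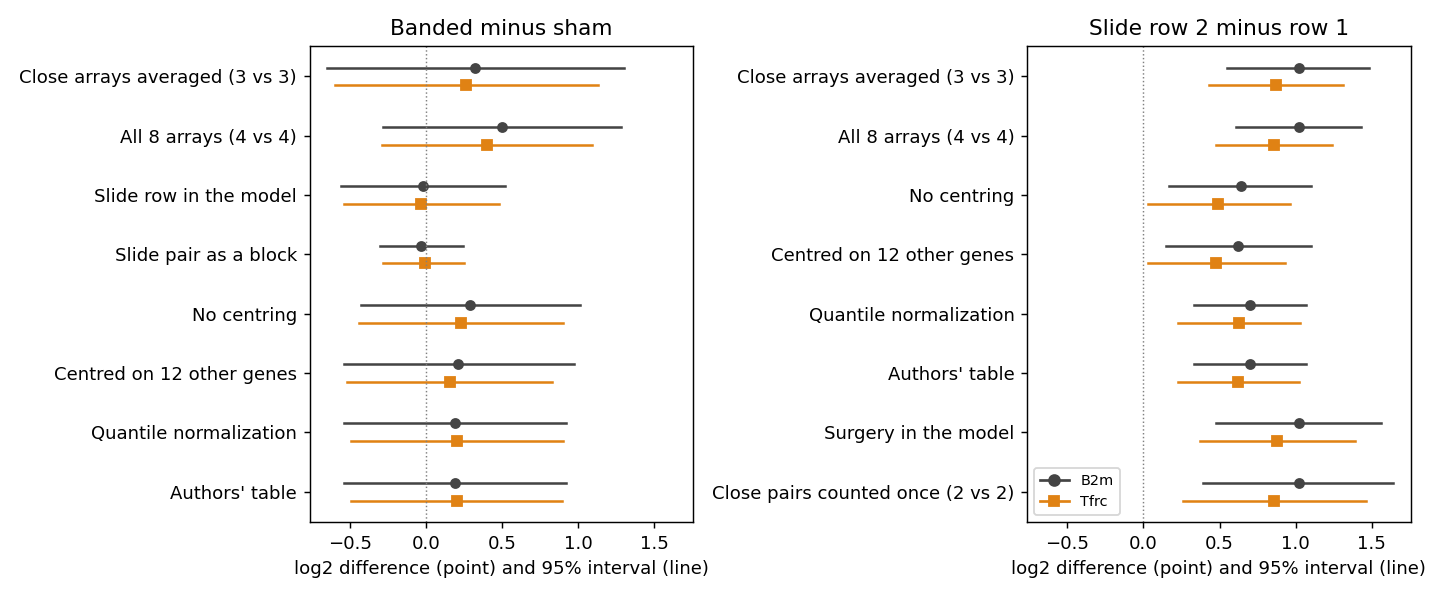
Log2 difference (points) with its 95% interval from limma (lines) for B2m and Tfrc, banded minus sham on the left and slide row 2 minus row 1 on the right, under the main setting (top) and 7 alternatives each. The surgery intervals drawn take in 0, and with the row or the pair in the model the points lie at -0.03 to -0.01, while the row intervals drawn lie above 0.

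The size of the row difference rested in part on the scaling. The 75th percentile itself was lower in row 2, by 0.38 log2 units (142.9 to 177.6 units in row 2, 186.7 to 254.7 units in row 1), so centring on it adds that amount to the row difference of every probe. Without any centring, B2m was 1.55-fold and Tfrc 1.41-fold higher in row 2, and neither passed the threshold (limma adjusted p = 0.0599 and 0.119). Centred on the mean of the 12 other detected genes printed in 20 copies, the ratios were 1.54 and 1.39 (limma adjusted p = 0.0503 and 0.0887). In the authors' deposited table B2m was 1.62-fold higher (limma adjusted p = 0.0295) and Tfrc 1.54-fold higher (limma adjusted p = 0.0541). Under each of these scalings both genes kept the higher value in row 2.

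Leaving out banded 1 or sham 2, which form the lowest pair, ended both calls. The row difference of B2m was then 0.93 without banded 1 (limma adjusted p = 0.0778) and 0.95 without sham 2 (limma adjusted p = 0.0763), and that of Tfrc 0.80 and 0.79 (limma adjusted p = 0.104 and 0.102).

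By close pair, the levels fell into 4 steps. B2m averaged 9.89 over banded 2 and banded 3, 9.43 over banded 4 and sham 1, 8.87 over sham 3 and sham 4 and 8.41 over banded 1 and sham 2. Tfrc averaged 6.95, 6.57, 6.13 and 5.67 over the same pairs in the same order. Within pairs the arrays differed by at most 0.127 for B2m and 0.109 for Tfrc, and between arrays of different pairs by at least 0.375 and 0.299. In the order of the 8 arrays by B2m level, sham 1 and banded 4 differed by 0.00329 and sham 2 and banded 1 by 0.0542, less than the SD over copies pooled over the 2 arrays. The other neighbours in that order differed by 1.95 times that SD or more. For Tfrc, sham 1 and banded 4 as well as banded 1 and sham 2 differed by less than this SD. It is the spread of single spots and not the smaller error of a mean over spots. A gap below it thus does not show that 2 arrays were alike within spot noise.

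A sign of RNA quality and labelling moved with these steps. The control spots for mouse PGK1 read the 3′ end and the 5′ end of the transcript separately, and the 3′ minus 5′ difference was 4.52, 4.39, 4.21 and 3.87 log2 units over the 4 pairs, from the pair with the highest B2m and Tfrc to the lowest. The same difference for mouse GAPDH was 0.614, 0.631, 0.528 and 0.336, and the 75th percentile was 150.0, 175.8, 194.9 and 229.1 units. By row, the PGK1 difference was 4.39 to 4.53 in row 2 and 3.85 to 4.24 in row 1. The GAPDH difference was 0.561 to 0.667 in row 2 and 0.335 to 0.569 in row 1, so its rows overlapped. It was also not highest in the pair with the highest B2m and Tfrc. The part of either control difference in the levels of B2m and Tfrc was not tested. Per the labels' protocols the RNA was labelled by random priming along the whole transcript, and where the B2m and Tfrc probes lie within their mRNAs is not known here.

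**Figure D3:**
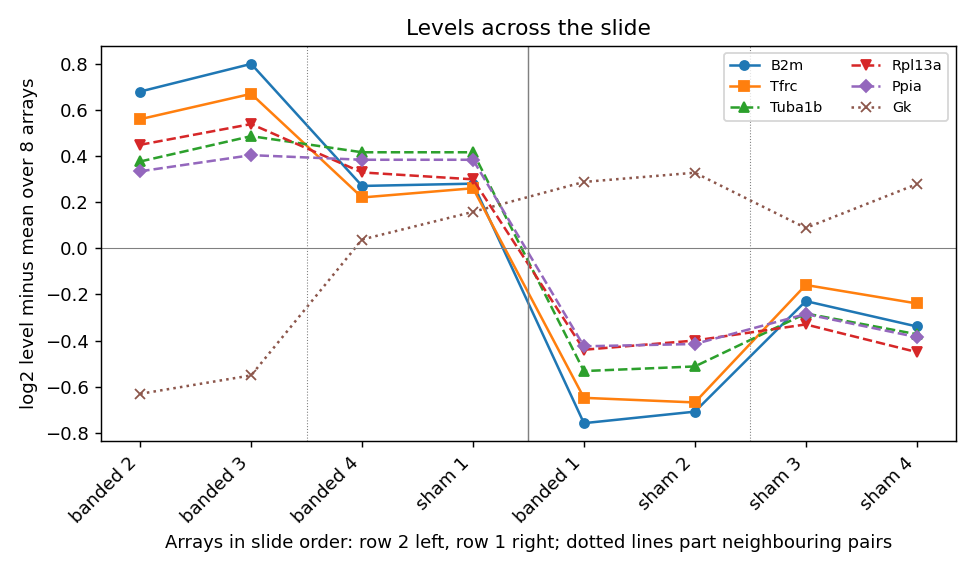
Log2 level relative to the 75th percentile, minus the mean of the gene over the 8 arrays (vertical axis), for B2m, Tfrc, the genes most like them (Tuba1b, Rpl13a, Ppia) and the gene least like them (Gk), over the arrays in slide order with row 2 on the left. Lines join arrays for legibility. B2m and Tfrc are highest on banded 2 and banded 3 and lowest on banded 1 and sham 2, and Gk runs the other way.

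Likeness of pattern was measured as the SD, over the 8 arrays, of the log2 ratio between 2 probes, where a small SD means that they moved together. B2m and Tfrc had an SD of 0.0945, against a median of 0.667 over all 35683 other tested probes set against B2m and 0.591 for those set against Tfrc. Tfrc was in place 23 of 35683 by likeness to B2m, and B2m in place 54 by likeness to Tfrc. Among the 14 detected genes printed in 20 copies, each was thus the nearest to the other. The next were Tuba1b, an alpha tubulin of the cytoskeleton (SD 0.218 to B2m, 0.171 to Tfrc), Rpl13a, a protein of the large ribosomal subunit (0.224 and 0.182), and Ppia, the prolyl isomerase cyclophilin A (0.269 and 0.212). Gk, which encodes glycerol kinase, was the least alike (0.948 and 0.860). Its level was -0.31 and -0.23 on banded 2 and banded 3, where B2m was highest, and 0.61 and 0.65 on banded 1 and sham 2, where B2m was low. The unnamed probes nearest to B2m were ASMM10P013114 (SD 0.0515) and ASMM10P044300 (0.0524), and the nearest to Tfrc were ASMM10P035748 (0.0529) and MM9LINCRNAEXON11569-_P1 (0.0549). The arrays of a pair are not independent, so these SDs describe the 8 arrays and carry no test.

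The ratio of B2m to Tfrc within an array showed whether the genes moved by unequal amounts. Relative to its mean over the 8 arrays, the log2 ratio was -0.12, 0.11, 0.13 and 0.06 in banded 1 to 4, against 0.01, -0.04, -0.07 and -0.09 in sham 1 to 4. The groups overlapped, through banded 1. The ratio averaged 0.02 ± 0.12 in banded and -0.04 ± 0.05 in sham hearts (SD, n = 3 each), a difference of 0.06 (exact two-sided permutation p = 0.5). By row it was 0.14 higher in row 2 (exact two-sided permutation p = 0.1, the smallest possible with 3 against 3). All 4 arrays of row 2 lay above all 4 arrays of row 1, the nearest being sham 1 at 0.01 and sham 2 at -0.04. The share of other probe pairs with no overlap was not computed. Of single tested probes, 26.5% had no overlap between rows in either direction. After quantile normalization the row difference of the ratio was 0.07 (exact permutation p = 0.3).

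**Figure D4:**
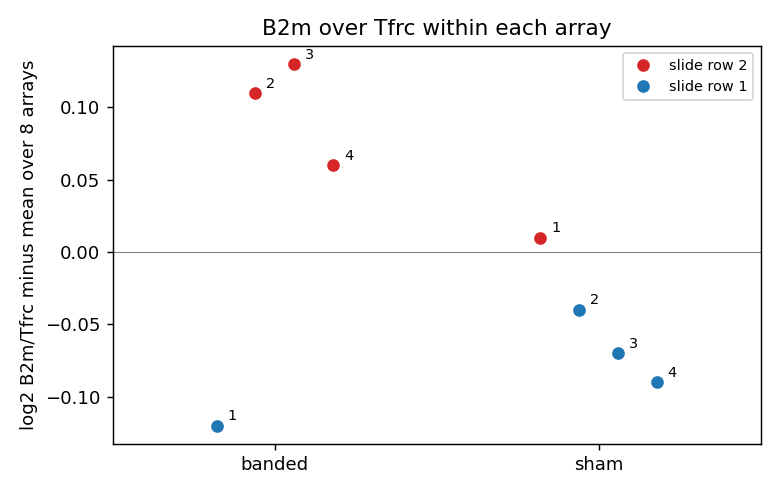
Log2 ratio of B2m to Tfrc within each array, minus the mean over the 8 arrays (vertical axis), in banded and sham hearts, with the mouse number beside each point and colour for the slide row. The 4 arrays of row 2 lie at 0.01 to 0.13 and the 4 of row 1 at -0.12 to -0.04.

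As reference genes, B2m and Tfrc were the most variable of the 14 detected genes printed in 20 copies when levels were set relative to the 75th percentile, with SDs between arrays of 0.599 and 0.512. The highest array was 2.97-fold above the lowest for B2m and 2.53-fold for Tfrc. Of all tested probes, 89.3% had a smaller SD over the arrays than B2m and 83.1% a smaller one than Tfrc. Nono, a nuclear RNA-binding protein and the steadiest of the 14, had an SD of 0.0485. The order depended on the scaling: with no centring, B2m was in place 2 of 14 with an SD of 0.369 and Tfrc in place 6 with 0.290, Gk was the most variable at 0.609, Nono stood at 0.261 and Gapdh was the steadiest at 0.0648. Centred on the 75th percentile, 8 of the 14 genes passed the threshold as higher in row 2 and 0 as lower. Over all tested probes 8.56% passed as higher and 13.4% in either direction. This count of genes was not made under other scalings. The median log2 difference of the 14 was 0.59, against 0.01 over all tested probes. B2m was the largest of the 14 and Tfrc in place 4. Between banded and sham hearts 0 of the 14 passed, and B2m and Tfrc were in places 1 and 4 by estimate.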

How the data were processed

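Each array was scanned as 1 colour (Cy3). Per the file headers, Agilent Feature Extraction 11.0.1.1 wrote the processed intensity of each spot after background subtraction and spatial detrending, on an array design for mm9, and 0 or 1 flags for outliers and spots well above background. The authors' deposited table holds log2 intensities, made by steps not given in the sources used here. Its log2-scale slope against the scanner values was 0.984 to 1.02. Its median was 4.924 to 4.925 on every array. The B2m row difference was 0.70 both in it and after quantile normalization, so these 2 settings are not separate checks. Here, log2 intensities of unflagged spots were averaged per probe and centred on the 75th percentile of each array. Probes well above background in most spots on at least 4 of 8 arrays were tested. Samples were compared with limma 3.58.1 in R 4.3.3 (lmFit, eBayes, Benjamini-Hochberg over all tested probes, threshold 0.05), checked on simulated data. Other tests were exact permutations. The number of arrays limits the precision.

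Named besides B2m and Tfrc are, by rule, for each of them the 3 genes printed in 20 copies with the most alike pattern, the least alike gene and at most 2 unnamed probes. Nono and Gapdh were named after their values were seen. The members, lists and tests were chosen with earlier results of these data known. The files used here pair no probe with other genes of MHC class I, of iron handling or of cell types, which were not analysed here. Gene names came from a RefSeq table on GRCm38.p6. Python 3.11.15 and matplotlib 3.10.9 drew the plots.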

Additional observations from a re-analysis of the deposited data

How the results depend on the processing

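The surgery difference stayed past no threshold for B2m and Tfrc under all 26 alternatives (adjusted p from 0.064 for B2m and from 0.0811 for Tfrc, limma, both with array quality weights), and ran from -0.03 to 1.00 for B2m and from -0.03 to 0.85 for Tfrc. It turned below 0 with slide row as a term (B2m -0.02, Tfrc -0.03) and with neighbouring pairs as a block (-0.03 and -0.01). With array quality weights it was 0.78 and 0.63. Whether names were exchanged between banded 1 and sham 1, or between sham 2 and banded 4, was not tested. With banded 1 and sham 1 left out, surgery and row coincide and cannot be told apart, and the surgery difference was 1.00 and 0.85. The 95% intervals of these 2 settings lie above 0. Leaving out 1 array gave 0.09 (without sham 2) to 0.75 (without banded 1) for B2m and 0.03 to 0.62 for Tfrc. The row difference stayed above 0 under all 24 alternatives. It missed the threshold for both genes with no filter on background (B2m 1.02, Tfrc 0.87), centred on the other genes in 20 copies (0.62 and 0.48), uncentred (0.64 and 0.49) and with pairs counted once (1.02 and 0.86), and for Tfrc alone after quantile normalization (0.63) and in the authors' deposited table (0.62). Leaving out 1 array gave 0.93 to 1.09 for B2m and 0.79 to 0.95 for Tfrc. The surgery difference of the B2m to Tfrc ratio was -0.01 after quantile normalization, also -0.01 in the authors' deposited table, and 0.04 to 0.13 without 1 array. Probes called for surgery (0) numbered 1 with array weights, 1 with slide row as a term and 1003 without banded 1 and sham 1, and 0 without any 1 array; those for the row (4813) numbered 2309 with no filter, 8028 with weights, 1427 with pairs counted once and 1801 (without sham 2) to 4847 without 1 array, among them 1806 without banded 1 and 2875 without banded 4 and 3002 without sham 1. With all 8 arrays counted separately, the surgery differences were 0.50 for B2m and 0.40 for Tfrc (limma adjusted p = 0.603 and 0.614). Their 95% intervals were -0.28 to 1.28 and -0.29 to 1.09. In that setting 2533 probes had an unadjusted p under 0.05. Mouse numbers are shared between the groups. Deviations of same-numbered arrays correlated at -0.654 to -0.0528, and 0 of 8 arrays were most like the same number in the other group. Same-numbered arrays always lay in different slide rows, so these values cannot show whether the numbers pair the arrays. With the replicate block the differences were 0.50 for B2m and 0.40 for Tfrc, with 0 probes called. Normexp on mean signals was not run, and median signals were used in its place. Alternatives without centring, before detrending, with normexp on median signals, without banded 1 and sham 1, and all for the ratio were chosen after seeing the data.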
